A study of Rattus norvegicus with 4 samples.

Results

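The adventitia is the outer coat of an artery, and its fibroblasts and their progenitors are recognised by a small set of marker genes. Here 10 such rat genes were followed: Pdgfra, Pi16, Cd34, Thy1, Fap, Myoc, Dpt, Vim, Gsn and S100a4. Probes were taken as theirs where the array's RefSeq accession maps to the symbol, which gave 1 probe each for 9 of the 10 genes, of 16574 genes named in this way on the array. Dpt, which encodes the matrix protein dermatopontin, had no probe matched and is not analysed here. Of the 9 genes with a probe, 5 were well above background on all 4 arrays (Pdgfra, Pi16, Vim, Gsn and S100a4) and 8 on at least 1 array.

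The arrays measured RNA of vessels from male rats in 4 groups with 1 array each. KO Ang II vessels came from rats carrying a PKCbeta deletion (protein kinase C beta, a signalling kinase) and had 24 h of Ang II, angiotensin II, a peptide hormone that constricts vessels. KO control vessels came from such rats and had none. WT Ang II and WT control were the same 2 conditions in Wistar rats. Which vessel was taken, the age of the rats, whether the deletion is limited to certain cells, what the control vessels received and whether RNA of several of the 4 rats per genotype was pooled could not be read from the labels.

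Fibroblasts of the vessel wall make and turn over its collagen-rich outer matrix. In mouse and human tissues, cells positive for Pdgfra, Pi16 and Cd34 form a reservoir from which more specialised fibroblasts are thought to arise, and the adventitia is one of the places where they reside. Vim, Gsn and S100a4 are much less selective, since smooth muscle, endothelial and immune cells use them too, and Cd34 is also carried by endothelium. RNA of whole vessels mixes all these cells, so fewer cells of a type and less RNA per cell cannot be told apart.

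For 3 markers on which the results turn, the 250 bases before the RefSeq start site of Pdgfra, Pi16 and Myoc are printed (RefSeq, build GRCr8, in lower case, 5′ to 3′ on the gene's strand). Capitals mark a match, on either strand, to TGANTCA, the element bound by AP-1 transcription factors, or to the TATA box TATAAA. No match overlapped another.
Pdgfra, chr14:33408517-33408766, minus strand: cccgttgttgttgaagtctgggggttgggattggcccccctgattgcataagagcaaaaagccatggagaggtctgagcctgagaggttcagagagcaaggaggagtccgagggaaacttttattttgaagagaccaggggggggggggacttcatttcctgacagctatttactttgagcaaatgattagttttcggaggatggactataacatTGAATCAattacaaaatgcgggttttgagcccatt
Pi16, chr20:7377703-7377952, plus strand: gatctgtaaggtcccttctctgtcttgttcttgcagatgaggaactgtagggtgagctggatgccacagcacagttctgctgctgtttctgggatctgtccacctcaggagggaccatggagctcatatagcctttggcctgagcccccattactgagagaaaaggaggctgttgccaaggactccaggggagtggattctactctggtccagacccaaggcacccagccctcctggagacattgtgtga
Myoc, chr13:77509713-77509962, plus strand: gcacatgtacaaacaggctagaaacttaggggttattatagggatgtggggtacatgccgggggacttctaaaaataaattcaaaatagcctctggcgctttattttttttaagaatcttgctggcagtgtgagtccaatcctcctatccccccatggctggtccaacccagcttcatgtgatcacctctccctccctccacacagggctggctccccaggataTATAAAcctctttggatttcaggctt
Promoters were matched for 9 of the 10 genes, all but Thy1. TGANTCA occurred in 1 of these 9 windows, that of Pdgfra (35 to 29 bases before the start), against 6.34% of all 33469 windows of this length. TATAAA occurred in 4 of 9, in Myoc 26 to 21 bases before the start and also in S100a4, Dpt and Vim, against 12.9% of all windows. The GC box GGGCGG occurred in 3 of 9 (Gsn, Cd34 and Vim), against 30.5%. These are letter matches in a window and not measurements of factor binding.

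Between 40.6% and 43.5% of probes on an array were well above background, and no spot was saturated. Signals were divided by each array's 75th percentile, which was 52.1 for KO Ang II, 47.3 for KO control, 62.4 for WT Ang II and 58.7 for WT control. All differences are log2 ratios of these scaled signals. Prkcb, the gene of the deleted kinase, read 1.88 in KO Ang II and 1.93 in KO control, both below the detection flag, against 17.8 in WT Ang II and 14.7 in WT control. Of markers of the vessel wall, 12 of 12 for smooth muscle and 9 of 12 for blood endothelium (11 with a probe) were detected on 1 array or more. By the same rule 9948 of the 16574 named genes were detected, and 3 of 5 skeletal muscle markers. Detection is thus a weak check of the tissue label. With 1 array per group a difference between single arrays has no replicate check and no p-value. Errors after ± are those of Feature Extraction's model for a spot, carried to ratios, and cover technical precision on 1 array.

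**Figure D1:**
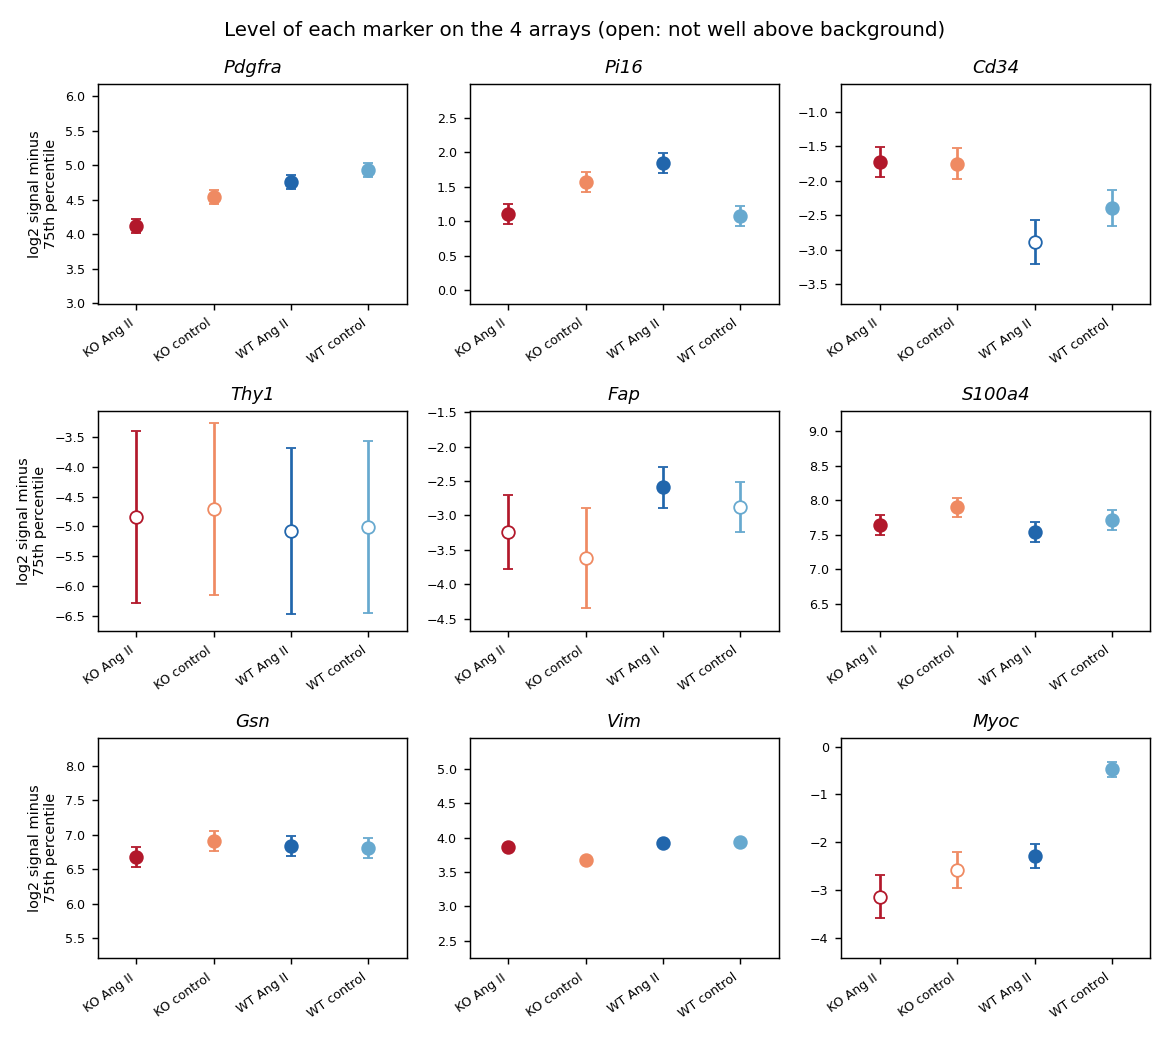
Level of 9 adventitial fibroblast markers on the 4 arrays, as log2 signal relative to the 75th percentile of its array, with 1 point per array. Bars are the scanner software's error (1 SE, technical), and open points were not well above background. Pdgfra lies lower on both KO arrays, Pi16 is highest in WT Ang II, Myoc stands out in WT control, and S100a4 and Gsn stay nearly level.

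Pdgfra, the receptor tyrosine kinase for platelet-derived growth factor that marks fibroblasts of most organs, was lower on both KO arrays. Its signal was 909.7 ± 64.3 in KO Ang II and 1098 ± 77.6 in KO control, against 1689.6 ± 119 in WT Ang II and 1787 ± 126 in WT control. After scaling, the log2 levels were 4.13 and 4.54 in KO against 4.76 and 4.93 in WT. The share of all genes with both KO levels below both WT levels was not counted. The log2 ratio of KO to WT was -0.63 ± 0.14 with Ang II and -0.39 ± 0.14 without it. The log2 ratio of Ang II to control was -0.41 ± 0.14 in KO vessels and -0.17 ± 0.14 in WT vessels, the last of these within 2 errors. Its direction in all 4 comparisons was the same under all 9 processing alternatives. Those that change only the probe filter or average a gene's probes could not move it, since its 1 probe was detected on all 4 arrays. In the order of levels, WT control and WT Ang II, and WT Ang II and KO control, were neighbours that did not differ by more than 2 errors, while KO Ang II lay below KO control by more than that.

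Pi16, a secreted or membrane-anchored protease inhibitor-like protein that marks the adventitial progenitor state in mouse and human, had opposite Ang II responses in the 2 genotypes. It read 112 ± 11.3 in KO Ang II and 141 ± 14.2 in KO control. In WT Ang II it read 225 ± 22.6 and in WT control 124 ± 12.5. The WT Ang II array was the highest, above KO control by 0.28 ± 0.21, which is within 2 errors, and KO Ang II and WT control differed by 0.03 ± 0.21 on the log2 scale. The log2 ratio of Ang II to control was -0.47 ± 0.21 in KO and 0.77 ± 0.21 (1.71-fold) in WT. KO response minus WT response was -1.24 ± 0.29 on the log2 scale, a 2.36-fold difference, and with normexp background correction it was -0.77. Against WT, Pi16 was at -0.75 ± 0.21 in KO with Ang II and at 0.50 ± 0.21 without it. The comparisons share arrays, so these values are not independent of each other.

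Cd34, a sialomucin of progenitor and endothelial cells, was dim, and it was higher on the KO arrays, the opposite order to Pdgfra. Its signal was 15.7 ± 2.36 in KO Ang II and 14.1 ± 2.26 in KO control, against 8.44 ± 1.89 in WT Ang II, where it missed the detection flag, and 11.2 ± 2.04 in WT control. Both KO values lay above both WT values, and the share of all genes with this order was not counted. With Ang II the log2 ratio of KO to WT was 1.16 ± 0.39 (2.23-fold) as read, against an undetected WT value, so it could be smaller. Since Cd34 was detected on the KO array alone in that comparison, it could only come out as higher in KO. Without Ang II the log2 ratio of KO to WT was 0.64 ± 0.35, within 2 errors. In WT vessels the ratio of Ang II to control was -0.50 ± 0.42 as read, within 2 errors, and -0.01 with normexp. It could only come out as lower, since the control array alone was detected. The KO arrays differed from each other by 0.02 ± 0.32. With normexp, whose offset shrinks the ratios of dim probes by construction, the KO to WT log2 ratio with Ang II was 0.19, under 2-fold.

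Fap, a membrane-bound serine protease of activated fibroblasts, was well above background on 1 array only. It read 5.53 ± 2.06 in KO Ang II, 3.86 ± 1.96 in KO control, 10.4 ± 2.16 in WT Ang II, the array where it was detected, and 7.99 ± 2.01 in WT control. The log2 ratio of Ang II to control in WT was 0.29 ± 0.47 as read, within 2 errors. For KO against WT with Ang II the bound was a log2 ratio of -0.08. Since Fap was detected in WT Ang II alone, it could only come out as higher with Ang II in WT and lower in KO. No neighbours in this order differed by more than 2 errors. Thy1, a membrane-anchored glycoprotein of fibroblasts, neurons and lymphocytes, was not well above background on any array, with signals of 1.81 to 1.85. No comparison of Thy1 was made, and its single probe gives only a bound for the gene.

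Myoc encodes myocilin, a secreted glycoprotein best known from the outflow tissue of the eye, and it showed the widest spread of the set. Its signal was 5.96 ± 1.87 in KO Ang II and 7.91 ± 2.04 in KO control, both not well above background, against 12.8 ± 2.25 in WT Ang II and 42.2 ± 4.57 in WT control. The WT control array alone was high. In WT vessels the log2 ratio of Ang II to control was -1.81 ± 0.30, a 3.51-fold lower level measured on both arrays. Between the control arrays Myoc was at least 4.09-fold lower in KO, and between the Ang II arrays at least 1.30-fold lower. Since Myoc entered the comparisons through the WT arrays alone, it could only come out as lower in KO. With normexp the WT Ang II ratio was -0.61 and the bound in KO without Ang II was -0.54 on the log2 scale, so neither reached 2-fold. The Ang II response in KO could not be measured.

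Vim encodes vimentin, the intermediate filament protein of mesenchymal cells, and its probe had 10 spots per array. It read 755 ± 23.9 in KO Ang II, 601 ± 19.0 in KO control, 949 ± 30.0 in WT Ang II and 899.7 ± 28.5 in WT control. KO control was the lowest array, and the WT arrays were level with each other. The log2 ratio of KO to WT was -0.07 ± 0.06 with Ang II and -0.27 ± 0.06 without it, the last a 1.21-fold difference. The ratio of Ang II to control was 0.19 ± 0.06 in KO and -0.01 ± 0.06 in WT, where its sign differed between settings. Spots of 1 array say nothing of the spread between vessels.

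**Figure D2:**
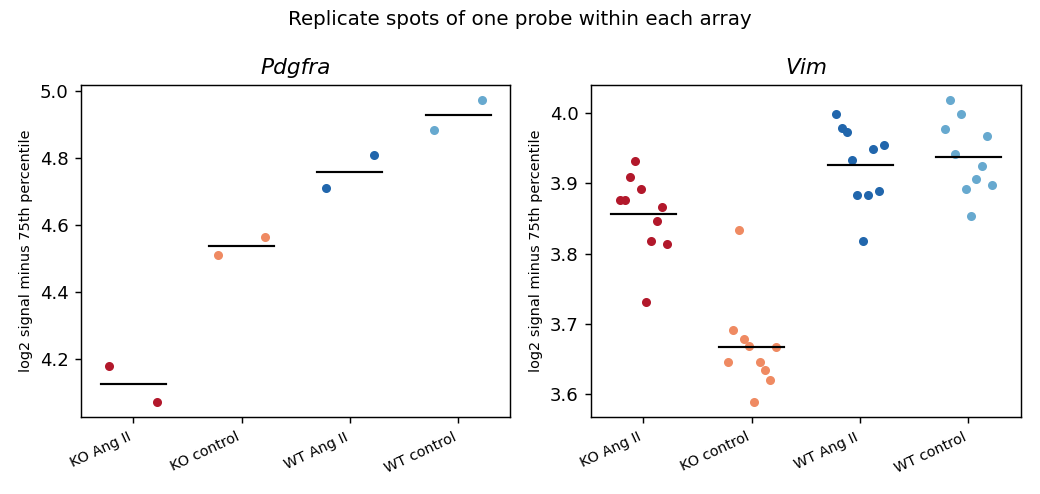
Replicate spots of the Pdgfra probe (2 per array) and the Vim probe (10 per array), as log2 signal relative to the 75th percentile of its array, with the mean as a line. The SD of the Vim spots within an array was 0.0524 to 0.0654, and its KO control array sits lowest. The Pdgfra spots of different arrays do not overlap, with KO Ang II lowest at 4.07 and 4.18.

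Gsn, the actin-severing protein gelsolin, and S100a4, a calcium-binding protein of motile fibroblasts and leukocytes, were the brightest of the markers and nearly level. Gsn read 5335 ± 533 in KO Ang II, 5668 ± 567 in KO control, 7106 ± 711 in WT Ang II and 6597 ± 659.7 in WT control. S100a4 read 10428 ± 1043 in KO Ang II, 11273 ± 1127 in KO control, 11630.2 ± 1163 in WT Ang II and 12364 ± 1236 in WT control. After scaling, the widest log2 difference between 2 arrays was 0.23 ± 0.20 for Gsn and 0.35 ± 0.20 for S100a4, both within 2 errors. The ratio of Ang II to control in KO was -0.23 ± 0.20 for Gsn and -0.25 ± 0.20 for S100a4, not detectable as a difference at this precision. In WT it was 0.02 ± 0.20 and -0.18 ± 0.20, and its sign differed between settings for both.

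Counted by comparison, few of the markers passed a 2-fold difference. For Ang II in WT, 1 of 8 markers compared was at least 2-fold lower (Myoc) and 0 were higher, where 0.889% of 9789 genes were lower and 1.43% higher by that much. For Ang II in KO, 0 of 6 passed in either direction, where 0.78% of 9229 genes were lower and 0.184% higher. For KO against WT without Ang II, 1 of 7 was at least 2-fold lower (Myoc, a bound) and 0 higher, where 3.33% of 9443 genes were lower and 2.4% higher. With Ang II, 1 of 8 was at least 2-fold higher (Cd34, as read against an undetected WT value) and 0 lower, where 1.84% of 9566 genes were higher and 4.41% lower. For the difference of responses, 1 of 5 was at least 2-fold lower (Pi16) and 0 higher, where 2.85% of 8585 genes were lower and 1.27% higher. Leaving out bounds, so that both arrays measured the gene, 1 of 6 markers was past 2-fold for Ang II in WT (Myoc, lower), where 0.516% of 9112 genes were lower and 1.14% higher. By the same count 0 of 6 were past it for Ang II in KO, where 0.483% of 8702 genes were lower and 0.126% higher. It was 0 of 6 for KO against WT without Ang II, where 2.74% of 8756 genes were lower and 1.9% higher, and 0 of 5 with Ang II, where 4.0% of 8880 genes were lower and 1.58% higher.

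The median log2 ratio over the markers compared was small in each case. It was -0.09 for Ang II in WT, against 0.04 over all genes, and -0.24 for Ang II in KO, against -0.00 over all genes, with 4 of 6 markers below 0. For KO against WT it was -0.11 with Ang II and 0.09 without it, against -0.04 and 0.01 over all genes. For the difference of responses it was -0.24 over 5 markers, 4 of them below 0, against -0.05 over all genes. Members of the set had different orders: Pdgfra was lower and Cd34 higher on both KO arrays, and Pi16 was above WT in the KO control and below it in KO Ang II.

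**Figure D3:**
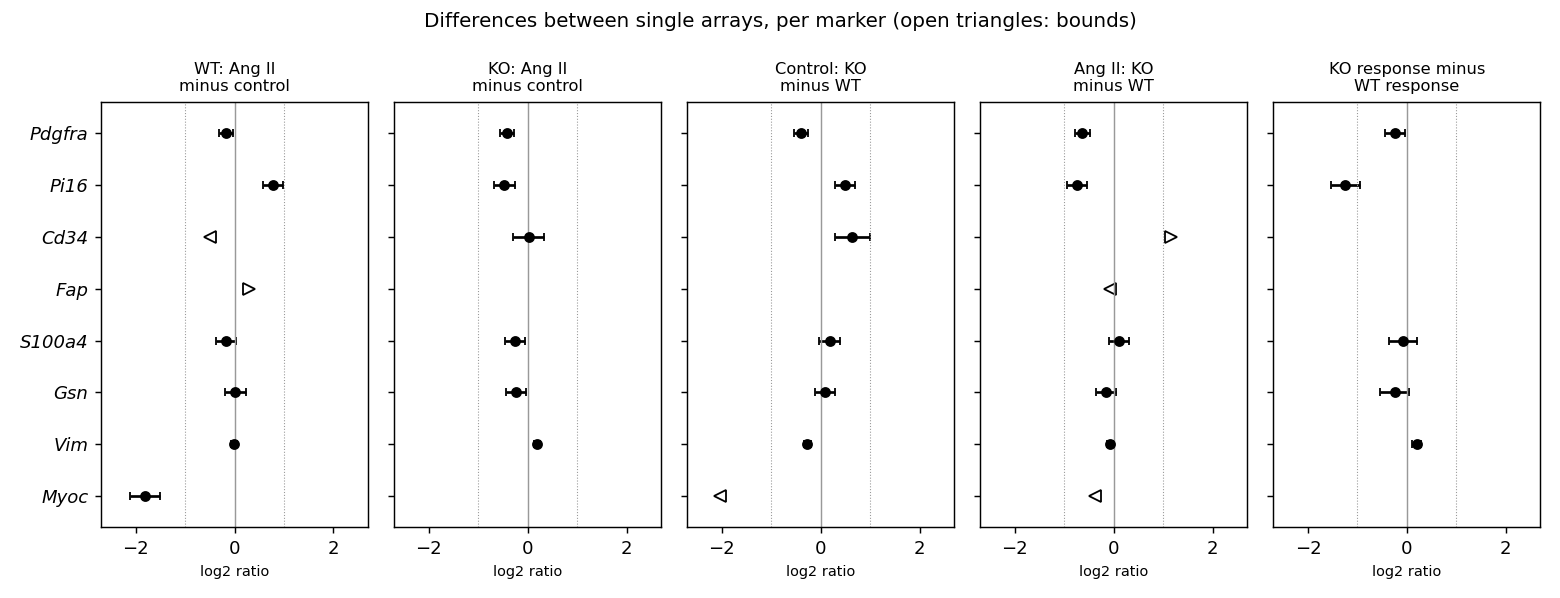
Log2 ratios between single arrays for 8 markers in 4 comparisons, and the KO response minus the WT response at the right. Bars are the combined scanner error, and dotted lines mark 2-fold. Open triangles, pointing away from 0, are ratios in which 1 array was not well above background. Myoc is the marker past 2-fold in WT vessels with Ang II, Pi16 is at 0.77 in WT and -0.47 in KO, and Gsn and S100a4 stay close to 0.

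The design allows a test of genotype only by averaging over treatment, with the interaction as the residual. In this additive limma fit over 9375 genes, 0 genes had an adjusted p under 0.05 for genotype (0.0%), although 2462 had an unadjusted p under 0.05, and 0 for Ang II (0.0%), with 361 unadjusted. The smallest adjusted p in the table was 0.066 for genotype, and Prkcb itself had 0.075. Myoc entered the fit through the WT arrays alone and its response in KO was not measured, so its terms are not read. Of the other 6 markers fitted, Cd34 and Pdgfra had an unadjusted p under 0.05 for genotype. Cd34 had a log2 genotype term, KO minus WT, of 0.90 (SE 0.20, limma adjusted p = 0.115), on both KO arrays. This term takes in the WT Ang II value as read, which missed the detection flag. Its KO to WT ratio measured on both arrays, without Ang II, was 0.64 ± 0.35, within 2 errors. Pdgfra had -0.51 (SE 0.16, limma adjusted p = 0.160), on both KO arrays. Pi16 stood at -0.13 (SE 0.34, limma adjusted p = 0.839). S100a4, Gsn and Vim had limma adjusted p-values of 0.585, 0.918 and 0.528. For Ang II, 0 of these 6 had an unadjusted p under 0.05.

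Other genes of the adventitial and fibroblast programme were mostly lower on the KO arrays. Of 18 further genes of adventitial progenitors, 10 were measured on all 4 arrays, and their median was -0.51 for KO against WT with Ang II (9 of 10 below 0) and -0.47 without it. With 1 further gene as a bound, the median without Ang II was -0.37 (7 of 11 below 0). Of all genes compared, 5106 of 9566 were below 0 with Ang II and 4609 of 9443 without it. Ackr3, a scavenging chemokine receptor, stood at -1.22 with Ang II and -1.25 without it, the 1 gene of this list past 2-fold in each case. Of all genes, 4.41% were at least 2-fold lower with Ang II and 3.33% without it. Sfrp2, a secreted Wnt modulator, stood at -0.82 with Ang II and -0.81 without it, the scavenger receptor Scara5 at -0.48 and -0.91, and Igfbp6, an IGF-binding protein, at -0.57 and -0.58. Of these 10 genes, 0 passed the limma test for genotype, and Ackr3 had an adjusted p of 0.093.

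For matrix genes of fibroblasts the median for KO against WT was -0.97 with Ang II and -0.63 without it over 16 of 17 genes measured, with 12 of 16 below 0 in each comparison. With Ang II, 7 of 16 were at least 2-fold lower and 0 higher, where 4.41% of all genes were lower and 1.84% higher. Without it, 4 of 16 were lower and 1 higher, where the shares were 3.33% and 2.4%. The 1 higher gene was Smoc2, a matricellular protein gene named after its values were seen, at 0.90 averaged over both comparisons, and Fbln1, a fibulin named in the same way, averaged 0.63 and 0.69 on its 2 probes. Col3a1, a fibrillar collagen, stood at -1.47 with Ang II and -1.45 without it. Col1a1 stood at -1.78 and -1.52 on its brightest probe, while its other probe averaged -0.56 over both comparisons against -1.65 for the first. Sfrp4, a secreted Wnt antagonist, stood at -1.07 and -3.05, and the chemokine Cxcl14 at -0.96 and -2.65. Like Myoc, Sfrp4 and Cxcl14 were highest in WT control, and with Ang II in WT they stood at -1.88 and -1.96, where the list's median was 0.02. Their Ang II ratios in KO were 0.10 and -0.27. Such a pattern was not limited to fibroblast genes. The pericyte marker Rgs5 and the blood endothelial marker Kdr were also highest in WT control. With Ang II in WT, Rgs5 stood at -2.93, where its list's median was -0.31, and Kdr at -1.25, where its list's median was -0.08.

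Genes of activated fibroblasts had a median of -0.37 for KO against WT with Ang II and -0.37 without it, over 11 genes, with 4 and 3 of them above 0. The median with Ang II was -0.01 over genes detected on all arrays, -0.01 with no filter and -0.09 with normexp. Without Ang II, 9 of the 11 genes were measured on both arrays, with a median of -0.22, and the rest were bounds. Those bounds had the WT array alone detected and could only come out as lower in KO. With Ang II, 3 of 11 were at least 2-fold lower and 2 higher, where 4.41% of all genes were lower and 1.84% higher. Without it 1 was lower and 1 higher, where the shares were 3.33% and 2.4%. Cthrc1, a secreted protein of matrix-producing fibroblasts, was at -1.83 with Ang II and, as a bound, at -2.20 without it. Col5a1 was at -1.23 and -0.88, with a second probe that averaged -0.35 over both against -1.06, and Ccn2, a matricellular growth factor, was at -1.01 and -0.89. Inhba, an activin subunit, ran the other way at 1.29 and 2.25 on its brightest probe. Its other probe was well above background on 0 arrays. The matrix genes Comp, at 0.85 averaged over both comparisons, and Ltbp2, at 0.65, were also higher in KO. Both were named after their values were seen. Among PDGF genes, which supply the ligands of Pdgfra, 2 of 5 were well above background. Pdgfa, a ligand, was at 0.44 with Ang II and 0.43 without it, and Pdgfrb, the sister receptor found on smooth muscle and pericytes, was at 0.10 and -0.30. Of the genes of these 4 lists, 0 passed the limma test for genotype or for Ang II.

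Markers of other cells also had unequal levels in the 2 genotypes. Of all genes compared, 4460 of 9566 were above 0 with Ang II and 4834 of 9443 without it. Smooth muscle markers had a median of 0.54 for KO against WT with Ang II and 0.49 without it, with 11 of 12 above 0 in each, and with normexp the medians were 0.38 and 0.23. Macrophage markers had medians of -0.50 with Ang II and -0.999 without it, with 10 of 11 and 10 of 10 below 0, Adgre1 at -2.04 and -1.47 and Ptprc at -1.22 and -1.09, and with normexp the medians were -0.34 and -0.58. Blood endothelial markers had medians of -0.15 and -0.46, with 6 of 9 and 8 of 9 below 0. The median with Ang II was 0.03 when all probes of a gene were averaged, and Cd34, which endothelium shares, was higher in KO. Of the adipocyte and lymphatic endothelial markers, Fabp4, Reln and Lyve1 were detected on WT arrays alone and could only come out as lower in KO. Over genes measured on both arrays, adipocyte markers had medians of -0.12 over 3 genes with Ang II and -0.72 over 2 without it. Of the lymphatic markers 1, Prox1, was measured on both arrays, at -0.98 and -0.48. Its scaled log2 levels were 6.91 to 7.89, near those of S100a4, while Lyve1 reached 0.04 at its highest. How far this probe reads lymphatic endothelium was not tested. With each gene centred over the 4 arrays, smooth muscle markers had a median of 0.30 in KO Ang II, 0.25 in KO control, -0.24 in WT Ang II and -0.28 in WT control, and macrophage markers -0.21, -0.49, 0.46 and 0.30 on the same arrays. Lymphocyte, Schwann cell, mesothelial, skeletal muscle and pericyte markers were detected on 1 array or more for 1 of 8, 3 of 6, 2 of 6, 3 of 5 and 6 of 7 genes. Their medians for KO against WT were 0.39, -0.26, 0.16, 0.36 and 0.15 with Ang II and 0.25, -0.50, 0.58, 0.14 and 0.00 without it. Red blood cell genes stood at -0.18 and 0.12, and with Ang II they were higher in both genotypes, by 0.54 in KO and 0.78 in WT. The part of these cell markers in the values of the adventitial markers was not tested.

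**Figure D4:**
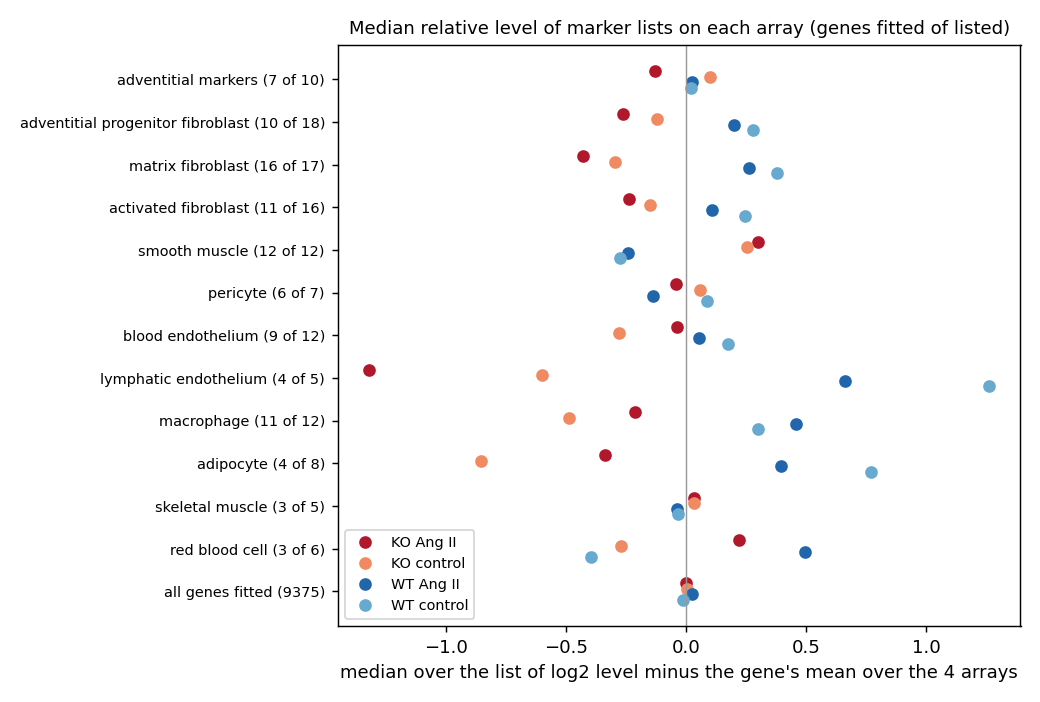
Median relative level of each marker list on the 4 arrays, as log2 level centred on that gene's own mean, for lists with at least 3 genes in the fit. The lists of progenitor, matrix and activated fibroblasts, macrophages and blood endothelium lie lower on both KO arrays and smooth muscle markers higher. The adipocyte and lymphatic lists lie lower there too, but include Fabp4, Reln and Lyve1, detected on WT arrays alone. Those genes could only come out as lower in KO. The adventitial markers as a group stay within -0.13 to 0.10.

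Among 8585 genes well above background on all 4 arrays, those nearest to Pdgfra and Pi16, the 2 markers with the widest range among the 5 detected on all arrays, were found by Euclidean distance of log2 levels centred on each gene's mean over the 4 arrays. Nearest to Pdgfra were Stard6 (distance 0.05), Tppp3 (0.06) and Adam19 (0.06). Nearest to Pi16 were Klf4, a transcription factor (0.09), Tmem216 (0.11) and Pgd (0.11). Klf4 stood at -0.25 in KO Ang II, 0.10 in KO control, 0.46 in WT Ang II and -0.31 in WT control, beside -0.30, 0.17, 0.45 and -0.32 for Pi16.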

How the data were processed

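RNA labelled with Cy3 was hybridised to 1-colour Agilent arrays, 1 array for each of 4 groups, all on 1 slide, so position on the slide and group cannot be told apart. The processed signal is an intensity, background-subtracted and detrended within the array by the authors' scanner software, per the file headers, and not normalized between arrays. For Agilent Feature Extraction, version 12.1.1.1 stands in the submitters' processing notes and 10.7.1.1 in the file headers. The value table that the authors deposited is on a log2 scale and served as an alternative; 98.0% to 98.1% of probes in each column lay within 0.01 of log2 signal shifted by 1 constant, and column medians were 2.11 for KO Ang II, 2.27 for KO control, 2.22 for WT Ang II and 2.29 for WT control. How these constants were chosen stays unknown.

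Outlier spots were left out (301 to 372 per array), log2 signals of a probe's spots were averaged, and each array's 75th percentile over 45594 probes was subtracted. A probe was well above background if most of its spots were. Accessions were matched without versions to RefSeq genes (GRCr8, names only), which named 21100 probes. A gene took its brightest probe well above background on at least 1 array. The dim side of a bound took its own value or, if higher, the array's lowest detected value. Where its own value was used, as for Cd34, the ratio is as read and is not a lower limit. A bound that ran against the detected side was left out. Single arrays were compared by a 2-fold size rule. An additive model (genotype plus treatment) was fitted in limma 3.58.1 under R 4.3.3, Benjamini-Hochberg adjusted over genes detected on 2 or more arrays, with 1 residual and 3.17 prior degrees of freedom. The remaining steps ran in Python 3.11.15. Normexp used the median spot signal and an offset of 50, since the files hold no mean signal.

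The markers, the 15 other gene lists and the tests were chosen with earlier results of these data known. The rule for names took all markers, Prkcb, up to 4 genes per list with the largest genotype effect in the fit, and the 3 nearest genes of the 2 markers with the widest range over the arrays, among those well above background on all 4. Precision is limited by having 1 array per group.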

Additional observations from a re-analysis of the deposited data

Results flagged for a closer look

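For 3 of the 5 markers measured on all 4 arrays the Ang II response lay on opposite sides of 0 in the 2 genotypes. The share of all genes with such opposite signs was not counted, and responses near 0 take either sign easily. The difference, KO response minus WT response, was -1.24 ± 0.29 on the log2 scale for Pi16, -0.25 ± 0.29 for Gsn and 0.20 ± 0.09 for Vim, with the scanner error. With 1 array per group the difference between the genotypes was not tested. Pi16 was the marker for which each of the 2 responses exceeded 2 scanner errors (-0.47 ± 0.21 in KO and 0.77 ± 0.21 in WT). The Gsn and Vim responses in WT were 0.02 ± 0.20 and -0.01 ± 0.06, and with normexp the Vim response in WT was 0.07.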

How the results depend on the processing

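Under the 9 alternatives, the markers' median ratio for Ang II in WT ranged from -0.16 to 0.04 and that for the KO and WT controls from -0.02 to 0.09, both across 0, while the other 3 medians stayed below 0. With normexp, 0 markers were past 2-fold in any comparison: the lower count was 0 for Ang II in WT, between the KO and WT controls and for the difference of responses, and the higher count was 0 for KO against WT with Ang II. Keeping only genes well above background on all arrays left 0 past 2-fold in the first 2 of these and in KO against WT with Ang II, since Myoc and Cd34 were then not compared. With no filter on dim probes, 1 marker, Myoc, was at least 2-fold higher in the difference of responses. Its value there was 1.26 ± 0.66 as read, with Myoc undetected on both KO arrays, so it is not a measured response. Without that filter the median of all genes was -0.10 for Ang II in KO and 0.17 between the controls. The Ang II term of Cd34 in the additive fit was 0.016 with normexp, against -0.24 in the main setting. Pdgfra and Pi16 kept their direction in all 5 comparisons. For these 2 markers, alternatives that only filter or average probes could not change a value, since each has 1 probe, detected on all 4 arrays. In the limma fit 0 markers had an adjusted p under 0.05 under any of the 9 alternatives. No paired analysis was possible because each group has 1 array, and no array could be left out without losing a group. Dim signals limit Cd34, Fap and Myoc, and Thy1 gave no level.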
